A study of Bos taurus with 15 samples.

Results

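The subject is a set of 10081 CpG-dense bins of the bovine genome whose cytosines were nearly free of methylation both in the mammary gland of heifers and in the liver of bull calves. A bin is a stretch of 1 kb of chromosomes 1 to 29, and the bins were taken from 2267039 bins in which at least 1 animal had a read. A bin was called dense when the 6 heifer libraries together covered at least 60 cytosine positions in it and the 9 calf libraries at least 10, and 40423 bins met both minimums. A dense bin was called low when its mean methylation, averaged over the animals at each position and then over positions, was 15% or less in each tissue. The low bins made up 24.9% of the dense bins and 0.445% of all bins. The members were thus chosen by their measured mean methylation in the libraries described here, so their low level is a description and no test was made on it.

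The method was reduced representation bisulfite sequencing (RRBS), in which DNA is cut at CpG-containing sites and short fragments are sequenced after bisulfite has changed the unmethylated cytosines. All animals were Holstein cattle, and the groups differed in the cooling of the dam during the last 6 to 7 weeks of gestation. All dams had shade, and the cooled dams had fans and water soakers as well. The calves were born over more than 1 summer, and the labels do not give their year. Liver was taken at birth from bull calves gestated by cooled dams (IUCL-B, n = 5) or by heat stressed dams (IUHT-B, n = 4). Mammary biopsies were taken on day 21 of the first lactation, long after the exposure, from heifers whose dams had been cooled (IUCL-H, n = 3) or heat stressed (IUHT-H, n = 3). Each calf keeps its labelled number (IUCL-B 1 to 5, IUHT-B 2 to 5), and the numbers of heifers follow the order of their records. Tissue, sex and age differed together, so none of them can be told apart from the others in a comparison of liver with mammary gland. The labels give the same library protocol for both tissues, but the coverage of the libraries differed, as described below.

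In mammals most CpG cytosines carry a methyl group, and stretches of DNA in which CpGs are frequent are the main exception. Such stretches, called CpG islands, lie at the promoters of many genes, including genes that every cell uses, and their edges, called shores, pass into methylated DNA. Whether the low bins lie at promoters was not analysed here, since an annotation of the genome build of the files was not used.

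The libraries of the tissues gave different views of the low bins. Each heifer library covered 95.8% to 100% of the low bins at 1.43 to 1.61 reads per covered position, and 9381 bins were read in all 6 heifers. The calf libraries were deep on few positions. IUCL-B calves 1 to 3 and all IUHT-B calves read 13.9% to 42.9% of the low bins at 18.4 to 54.7 reads per position, whereas IUCL-B calves 4 and 5 read 95.1% and 99.9% of them at 5.11 and 5.70 reads per position. These 2 libraries supplied 84.5% of the calf positions in low bins, so the liver mean that chose the bins rested mostly on them. A low bin was read in a median of 4 calves. In 2706 low bins only 2 calves had a read, and 159 were read in all 9.

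Calf libraries of the same group also shared positions in the low bins. A pair of IUHT-B libraries had in common 37.5% to 69.6% of the low-bin positions of whichever library had fewer. For pairs of IUCL-B calves 1 to 3 the overlap was 39.9% to 60.6%, and for pairs made of 1 of these and 1 IUHT-B calf it was only 9.28% to 15.7%. IUCL-B calf 4 shared 13.8% to 31.1% with the other calves and calf 5 shared 30.1% to 33.4%. At positions with more than 10 reads, 2.04% to 5.81% of the positions of a calf held both methylated and unmethylated reads, against 44.3% to 63.8% in a heifer. Reads of a calf at such a position were thus nearly always in 1 state. Reads of a calf at 1 position were therefore not taken as independent observations, except in the tests named as without overdispersion. The liver comparisons of levels per animal in the low bins and beside their runs are given with and without IUCL-B calves 4 and 5. So are the levels of calves by distance in kb from the runs. Steps of 100 bp and the sides of the runs are given for all calves together only.

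The dense bins fell into classes of low and of high methylation with little between them. In mammary gland 11049 dense bins were at 15% or less, 3282 (8.12%) were over 15% and up to 50%, and 26092 (64.5%) were over 50%. In liver the numbers were 11369, 3663 (9.06%) and 25391 (62.8%). The low bins held 91.2% of the dense bins that were low in mammary gland and 88.7% of those that were low in liver. Dense bins at opposite ends were few, with 6 that were low in mammary gland and over 50% in liver and 135 that were low in liver and over 50% in mammary gland.

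**Figure D1:**
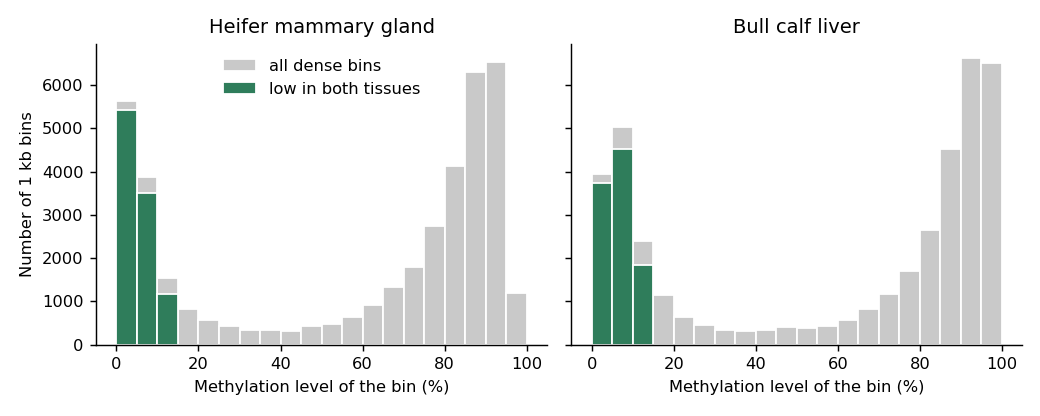
Number of 1 kb bins by methylation level in steps of 5 percentage points, for all 40423 dense bins (grey) and the 10081 bins low in both tissues (green), in heifer mammary gland and bull calf liver. In both tissues the grey bars form a low and a high group, and the step from 10% to 15% holds 1546 dense bins in mammary gland and 2393 in liver.

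Within the set the mean level was 5.50% ± 3.23 (SD over 10081 bins) in mammary gland and 6.49% ± 3.67 in liver, with medians of 4.73% and 6.25%. Levels of 5% or less were found in 5413 low bins in mammary gland and in 3736 in liver. A level of exactly 0 was found in 22 low bins in mammary gland and in 589 in liver. The limit of 15% lay on a slope rather than in a gap. In mammary gland 225 dense bins lay within 1 percentage point below it and 194 within 1 point above it, and in liver the numbers were 332 and 320.

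The bins nearest to the limit show what it separated. Just inside were bins of chr1:56308000-56308999, with 3.00% in mammary gland and 15.0% in liver, chr1:97651000-97651999, with 7.60% and 15.0%, and chr2:108197000-108197999, with 3.397% and 15.0%. Each of them was read in 2 calves, IUCL-B calves 4 and 5. The bins just outside were chr11:99832000-99832999, with 15.0% and 11.2%, chr6:106894000-106894999, with 15.0% and 12.9%, and chr12:51025000-51025999, with 13.2% and 15.0%, where the value that excluded them exceeded the limit before rounding.

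Because every position weighs the same in the rule, a low bin can hold a few well-read methylated positions. By the percent of all its calls (methylated and unmethylated reads summed over animals), 345 low bins exceeded 15% in mammary gland and 913 in liver, and 2 and 21 exceeded 50%. The highest in mammary gland, singled out after its value was seen, was chr17:12988000-12988999. Of its 126 heifer positions, 9 held 827 of its 1117 calls and were methylated in 86.9% of them, while the other positions were methylated in 10.3% of calls.

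Single positions were described where at least 10 calls were summed over the animals of a tissue, which in low bins held for 25596 of 908731 mammary positions and for 107694 of 423947 liver positions. In mammary gland 55.7% of these positions had no methylated call, 82.3% were at 10% or less, 15.7% were between 10% and 50%, and 1.97% were over 50%. In liver 88.1% had none, 2.86% were between 10% and 50% and 6.14% were over 50%. Since deep calf positions were nearly always read in 1 state, the small share of intermediate positions in liver cannot be told apart from that property of the libraries. The positions over 50% carried 26.8% of the methylated calls of these positions in mammary gland and 85.0% in liver. In the other dense bins, 91.0% of the positions in mammary gland and 79.4% in liver were over 50%.

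Low bins were richer in covered positions than the other dense bins. They held a median of 84 heifer positions and 61 CpGs when the strands were merged, against 74 positions and 45 CpGs in the other dense bins. The share of dense bins that were low rose with the number of heifer positions, from 18.5% of the bins with 60 to 79 positions to 27.7% with 80 to 99, 39.5% with 100 to 119 and 46.3% with 120 or more. Their level did not follow this order closely. The mean in mammary gland was 5.69% in the bins with 60 to 79 positions and 5.21% in those with 120 or more, and in liver it was 6.45% and 6.69%. The number of positions also depends on depth, and heifer reads were thinner in low bins. Each heifer had fewer reads per covered position in low bins than in the other dense bins, 1.49 ± 0.0710 against 2.17 ± 0.114 (SD, n = 6), a mean log2 ratio of -0.54 (two-sided exact sign-flip permutation test, p = 0.0312, the smallest possible). The median was 1 read in low bins in all 6 heifers and differed from that of the other dense bins in 1 heifer. In calves the log2 ratio was -0.04 and lower in 6 of 9 calves (exact p = 0.543), and in the 7 calves that remain when IUCL-B calves 4 and 5 are left out it was 0.0159 (exact p = 0.812).

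The low bins lay scattered and mostly alone. They formed 8470 runs of adjacent bins, of which 7075 were single bins, 1214 were pairs, 150 held 3 bins, 28 held 4, 2 held 5 and 1 held 6. Neighbouring runs on a chromosome were a median of 105 kb apart, and 10.7% were within 10 kb of the next. In 164 cases a single 1 kb step separated them. Reads were found in 160 of these steps, and 139 of those had fewer than 60 heifer positions. Their median level was 8.33% in mammary gland and 9.45% in liver, and 82 of the 160 were at 15% or less in both tissues, so the position minimum broke some longer low stretches into separate runs.

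The longest run covered chr3:8110000-8115999, 6 bins with 800 heifer positions. Its bins were at 4.48% to 11.5% in mammary gland and 4.87% to 12.8% in liver. By percent of calls the IUCL-H heifers had 11.03%, 11.7% and 7.55% and the IUHT-H heifers 11.5%, 9.19% and 8.54%, so the groups overlapped. The IUCL-B calves had 27.2%, 7.46%, 28.6%, 9.02% and 10.6% and the IUHT-B calves 13.6%, 0.236%, 7.49% and 0.388%, a spread far wider than that of the heifers and with overlap. This wider spread cannot be told apart from the properties of the calf libraries described above. The run bordered on bins of 51.0% and 62.1% in mammary gland and of 47.6% and 100% in liver.

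Both runs of 5 bins behaved differently at their edges. The run of chr26:43255000-43259999 had 478 heifer positions, bins at 4.86% to 9.52% in mammary gland and at 3.57% to 10% in liver, and bordered on bins of 12.3% and 6.82% in mammary gland and 25% and 45% in liver that held 18 and 11 heifer positions. Its heifers lay between 5.22% and 9.57% of calls. All its calves were read, and 6 of the 9 had no methylated call there, IUCL-B calves 1 to 3 and IUHT-B calves 2, 4 and 5. The run of chr19:13610000-13614999 had 386 heifer positions, bins at 3.46% to 13.97% and 3.33% to 6.79%, and neighbours of 16.9% and 11.1% in mammary gland and 9.94% and 10.9% in liver, on 73 and 59 heifer positions. The mammary levels beside these runs were thus at or near the limit or below it, whereas in liver both neighbours of the run on chromosome 26 exceeded the limit.

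Low bins were unevenly spread over the chromosomes. There were 4.58 low bins per 1000 bins read in heifers. Chromosome 25 had the most, 9.92 per 1000, followed by chromosome 19 with 9.33 and chromosome 18 with 7.97. Chromosome 27 had the fewest, 2.83, and chromosomes 20, 1 and 9 had 3.04, 3.16 and 3.19. The order by the share of dense bins that were low was different. It ranged from 14.5% on chromosome 29, 15.2% on chromosome 22 and 15.4% on chromosome 25 to 55.4% on chromosome 28. Chromosome 25 thus had 405 low bins among 2635 dense ones, and chromosome 28 had 159 among 287. The mean level of the low bins hardly varied between chromosomes, from 5.02% (chromosome 1) to 6.10% (chromosome 26) in mammary gland and from 5.70% (chromosome 27) to 7.00% (chromosome 26) in liver.

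The ends of the chromosomes held dense bins of the other kind. The last 2 Mb of the 29 chromosomes made up 2.54% of the bins read and held 25.1% of the dense bins but 5.18% of the low bins. There 522 of 10144 dense bins were low (5.15%), against 31.6% of the dense bins elsewhere. The share was lower in the last 2 Mb than in the rest on 28 of 29 chromosomes, chromosome 18 being the exception. Counted per bin rather than per dense bin, low bins were still more frequent at the ends, with 9.36 per 1000 bins in the last 2 Mb against 4.46 elsewhere, and more frequent there on 23 of 29 chromosomes. In the first 2 Mb, where bovine autosomes have their centromere, 280 of 1417 dense bins were low (19.8%). Chromosome 25 alone gave 593 of these dense bins and 79 of the low ones, so the share rests largely on it.

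**Figure D2:**
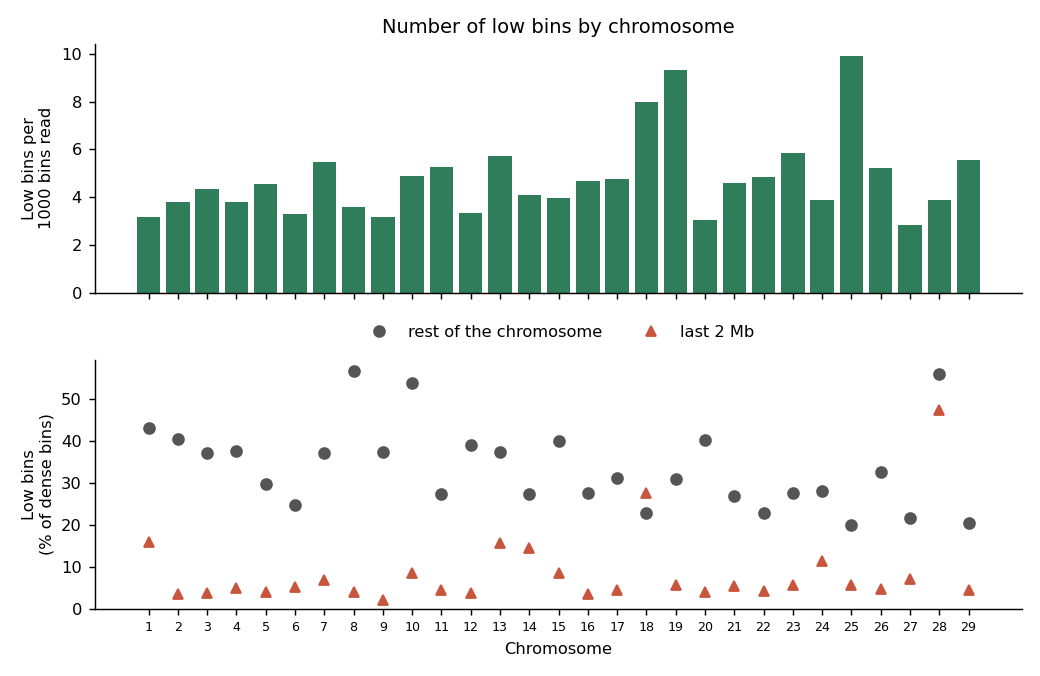
Upper panel, low bins per 1000 bins read in heifers on each of the 29 chromosomes. Lower panel, low bins as a percent of the dense bins in the last 2 Mb of a chromosome (triangles) and in the rest of it (circles), the triangle lying below the circle on 28 chromosomes.

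On a finer scale, 572 of 2529 windows of 1 Mb (22.6%) had no low bin, the median window had 3, and 37 windows with 20 or more held 9.54% of all low bins. The richest window was chr25:1000000-1999999 with 48 low bins among 300 dense ones. It was followed by chr7:45000000-45999999 with 39 of 113, chr16:52000000-52999999 with 35 of 94, chr25:36000000-36999999 with 33 of 81 and chr14:1000000-1999999 with 32 of 133.

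Methylation rose steeply from the ends of the runs. The bins directly beside a run, here called the rim, were not used by the rule except that they are not low bins themselves. By percent of calls the rim had 34.7% ± 4.26 (SD, n = 6) in heifers and 34.1% ± 3.90 (SD, n = 9) in calves, whereas bins beside the other dense bins had 79.0% ± 1.13 and 80.7% ± 1.55. The rim was lower in every animal, with differences of -49.0 to -39.1 percentage points in heifers (two-sided exact sign-flip permutation test, p = 0.0312) and of -52.4 to -43.3 points in calves (exact p = 0.00391), each the smallest p the design allows. A low stretch could run on into the rim past the border of a bin or the position minimum, so the direction is no independent result. Dense bins were left out of the comparison bins but not of the rim, where 1159 of 16598 bins were dense. In the 7 calves other than IUCL-B calves 4 and 5 the rim was at 35.7% ± 2.23 (SD, n = 7) and the mean difference was -45.4 points (exact p = 0.0156, the smallest possible).

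The rise was not complete within the rim. At 2 kb from a run heifers had 66.1% ± 2.54 and calves 68.8% ± 4.69, at 5 kb 74.2% ± 1.79 and 74.5% ± 2.24, and at 20 kb 77.8% ± 1.28 and 79.5% ± 1.96. At 50 kb the levels of 78.0% and 80.2% were close to those 50 kb from the other dense bins, 77.9% and 80.1%. The 7 calves other than IUCL-B calves 4 and 5 had 70.3% ± 4.16 at 2 kb, 75.3% ± 1.83 at 5 kb, 80.07% ± 1.69 at 20 kb and 80.7% ± 2.47 at 50 kb. In steps of 100 bp, as the mean over positions, mammary methylation was 4.59% between 400 and 500 bp inside a run, 7.91% in the last step inside, 11.5% in the step just outside and 51.4% at the far end of the rim. Liver, with all calves together, took nearly the same course, with 6.00%, 8.17%, 11.5% and 49.9%. These steps were not computed without IUCL-B calves 4 and 5. In both tissues the increase began inside the runs. The next step outside was at 15.6% in mammary gland and 14.8% in liver.

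The mean profile averages over sides of runs that were methylated to different degrees. Of 8231 runs with both neighbouring bins read in heifers, 694 (8.43%) had more than 50% methylation on both sides, 3472 (42.2%) on 1 side and 4065 (49.4%) on neither. The lower side had a median of 12.5% and the higher side 50.9%, which differ by construction because the sides were sorted by level. Whether the sides of a run differed more than unrelated rim bins was not tested. In liver, with all calves together, 7.94% of 7543 runs exceeded 50% on both sides, 40.7% on 1 side and 51.4% on neither. Of 16598 rim bins read, 3731 (22.5%) were at 15% or less in both tissues, and 3705 of these had fewer than 60 heifer positions. The rim bins held a median of 22 heifer positions and only 1159 were dense.

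**Figure D3:**
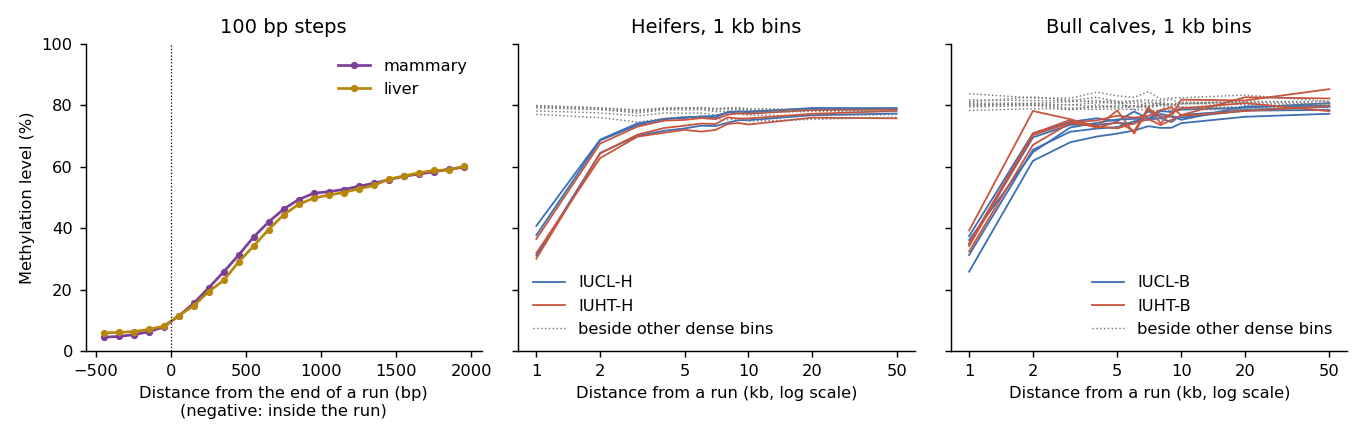
Left, methylation level (mean over positions, percent) in steps of 100 bp from 500 bp inside to 2000 bp outside the runs of low bins. Middle and right, percent of methylated calls of each heifer and each calf in 1 kb bins from 1 to 50 kb from a run (log scale), with dotted lines for bins at the same distance from the other dense bins, from which the lines of the runs differ most at 1 kb (34.7% against 79.0% in heifers).

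The low state was then read in an animal that had not taken part in choosing the bins. When the bins were chosen again without an animal, the level of that animal in them was 5.21% to 8.42% in heifers and 4.90% to 8.82% in calves. The choice itself was stable to the loss of most animals, with 91.1% to 99.95% of the 10081 bins chosen again. It was less so without IUCL-B calf 5 (65.1%), IUHT-H heifer 3 (66.7%) and IUCL-H heifer 3 (70.2%), the animals with the most positions in low bins.

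The spread between heifers within a low bin was limited by the rule itself, which used the mean of the same heifers, and is given as a description. Among 2632 low bins with at least 20 calls in every heifer, the median SD between heifers was 3.36 percentage points, and sampling of the calls alone would give a median of 3.13. The median ratio of observed to binomial variance was 1.26. It was 2.99 in the dense bins of 15% to 50% (median SD 11.02) and 1.53 in those over 50% (median SD 4.80). A minority of low bins departed from this. The largest SD, 30.1 points, was that of chr18:35245000-35245999, where IUCL-H heifers had 0%, 86.0% and 17.8% and IUHT-H heifers 26.6%, 38.6% and 13.99%. At chr21:68601000-68601999 (SD 27.4) 1 heifer, IUHT-H heifer 1, stood at 85.7% and the others between 9.52% and 40.7%. At chr11:101247000-101247999 (SD 24.7) IUCL-H heifer 2 had 70.0% and the other 5 between 1.82% and 20.8%. Single heifers had 20 to 146 calls in these bins, and the groups overlapped in each of them.

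The bins with the most calls in every animal are given for both tissues. At chr3:8104000-8104999, just before the longest run, heifers had 17.3%, 9.82% and 7.19% (IUCL-H) and 12.5%, 15.0% and 7.91% (IUHT-H), and calves 18.2%, 31.5%, 21.0%, 14.8% and 11.4% (IUCL-B) and 2.42%, 10.6%, 15.96% and 0.893% (IUHT-B). At chr2:132692000-132692999 heifers lay between 3.21% and 5.61%. Its calves ranged from 0% in 4 animals to 14.7% in IUCL-B calf 4. At chr20:4833000-4833999 heifers lay between 3.13% and 25.9%, and IUHT-H heifers 1 to 3 (3.13%, 7.58% and 15.0%) were below IUCL-H heifers 1 to 3 (17.4%, 22.9% and 25.9%). Calves there went from 0% in IUCL-B calf 5 to 100% in IUHT-B calves 3 and 5, by percent of 19 to 420 calls, although the rule gave the bin a mean of 12.8% in liver. By percent of calls the spread between calves thus exceeded that between heifers in all 3 bins. Calf reads at a deep position were nearly always in 1 state, and calves covered partly different positions. The wider spread in liver cannot be told apart from these properties of the libraries.

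The comparison of the maternal treatments asked whether in utero heat stress went along with a different level in the low bins. The rule used the levels of these same animals, though not their treatment. Differences of low-bin level between the groups, and their p-values, are therefore given as a description. In mammary gland the low bins of IUCL-H heifers 1 to 3 had 7.09%, 8.21% and 5.19% of calls methylated and those of IUHT-H heifers 5.69%, 6.49% and 5.14%. Counting error was small, the widest Wilson 95% interval being that of IUCL-H heifer 2, from 8.09% to 8.33%, and it covers counting error only. The means were 6.83% ± 1.53 and 5.77% ± 0.680 (SD, n = 3), a difference of -1.06 points (IUHT minus IUCL) no larger than the SD within IUCL-H (exact permutation test, two-sided, p = 0.3, with 0.1 the smallest possible). The share of a heifer's calls that fell in low bins varied too, 1.78%, 1.36% and 3.65% in IUCL-H and 2.76%, 1.76% and 3.90% in IUHT-H, and the 3 heifers with the smallest shares had the 3 highest levels. Its part in the difference was not tested. Restricted to positions with more than 10 reads in a heifer, the difference was 3.02 points in the opposite direction (exact permutation p = 0.9), and it was -0.370 points without IUCL-H heifer 2 and -1.88 without IUCL-H heifer 3.

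In liver the low bins of IUCL-B calves 1 to 5 had 6.70%, 6.56%, 6.69%, 8.19% and 5.90% of calls methylated and those of IUHT-B calves 2 to 5 had 6.11%, 6.01%, 5.84% and 4.74%. The IUHT-B calves lay below all IUCL-B calves except calf 5. The liver mean that chose these bins rested mostly on IUCL-B calves 4 and 5, so the groups did not enter the rule alike. The means were 6.81% ± 0.839 (SD, n = 5) and 5.67% ± 0.635 (SD, n = 4), a difference of -1.13 points larger than the SD within either group (exact permutation test, two-sided, p = 0.0317, with 0.00794 the smallest possible). It was kept at positions with more than 10 reads (-1.19 points, exact permutation p = 0.0397), in the low bins at 10% or less (-1.12 points, p = 0.0159) and without the positions of highest coverage (-1.23 points, p = 0.0317), and lost under other settings. As the mean over positions the difference was -0.580 points (exact permutation p = 0.238), over the 14 positions covered in every calf -1.20 points (p = 0.889, with group SDs of 12.1 and 12.5), and without IUCL-B calves 4 and 5 -0.977 points (p = 0.0571, with 0.0286 the smallest possible). Leaving out any 1 calf other than IUCL-B calf 5 gave p between 0.0857 and 0.107, at differences of -0.790 to -1.28 points. In the other dense bins the level was 79.3% ± 2.07 in IUCL-B (77.0% to 81.9%) and 80.1% ± 1.70 in IUHT-B (77.8% to 81.4%), so the means there stood in the opposite order and the groups overlapped, and whether the low bins differed from them in this was not tested. The groups also differed in the positions their libraries covered, as above, so the difference of methylation and the difference of libraries cannot be told apart.

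The difference between the tissues in the effect of treatment was -0.0741 points (exact permutation of the labels within each tissue, p = 0.948). Rim methylation was 36.6% ± 4.92 in IUCL-H and 32.9% ± 3.30 in IUHT-H, a difference of -3.70 points (exact p = 0.3). This was -1.59 points without IUCL-H heifer 2, -2.34 without IUHT-H heifer 3 and -6.41 without IUCL-H heifer 3. In liver it was 33.1% ± 4.65 in IUCL-B and 35.3% ± 2.89 in IUHT-B, a difference of 2.15 points (exact p = 0.476) and of -0.866 points when IUCL-B calves 4 and 5 were left out (exact p = 0.657). It was 0.337 points without IUCL-B calf 5, 0.810 without IUHT-B calf 5 and 3.23 without IUCL-B calf 3. In neither tissue did the groups separate at the rim.

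**Figure D4:**
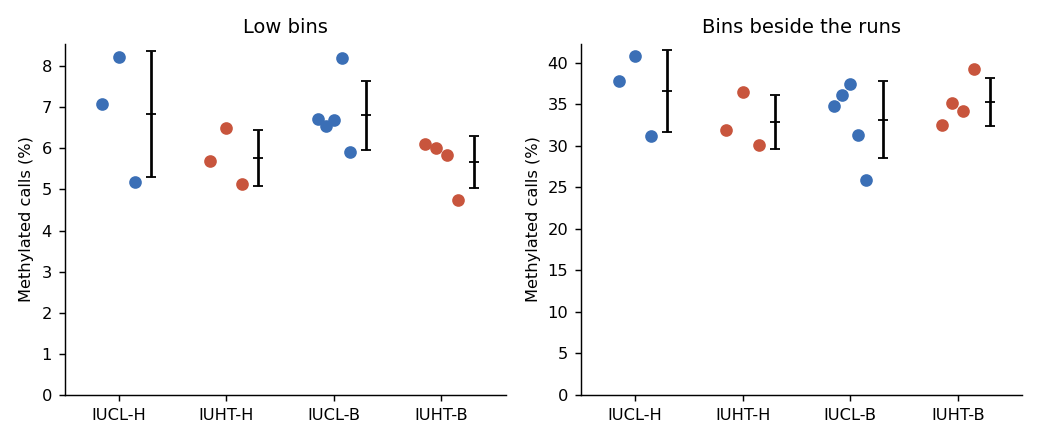
Percent of methylated calls in the low bins (left) and in the bins beside their runs (right) of each animal (points), with the mean and SD of each group (bars). IUHT-B calves lie between 4.74% and 6.11% and IUCL-B calves between 5.90% and 8.19%, and heifer groups overlap in both panels.

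Single bins were tested by logistic regression of the calls on treatment with a term for overdispersion, and a bin was called at a q-value (p adjusted over all bins tested, Benjamini-Hochberg) of 0.2 or less. In mammary gland 81206 bins had at least 20 calls in every heifer, 2632 of them low bins. No low bin was called, nor any other bin (0% of those tested). At an unadjusted p under 0.05 were 36 low bins (1.37%), against 1.61% of all bins tested. This test also called none of the differences planted in simulated counts of this size, so its count of 0 carries little weight. Limma on log2((methylated + 0.5)/(unmethylated + 0.5)) did recover planted differences. It called 0 low bins as well (0% of all bins tested at the same q). The planted differences were much larger than the rule left room for in most low bins, so this count of 0 carries little weight for them. By limma 243 low bins (9.23%) were at an unadjusted p under 0.05, against 4.72% of all bins tested. Of these 243, 161 were lower in IUHT-H (6.12%, against 2.44% of all bins) and 82 higher (3.12%, against 2.28%). A bin without a methylated call has a ratio set by its number of calls alone, and 8.21% to 20.4% of the low bins of a heifer were of that kind. The part of this in the share was not tested.

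The size of the differences between the heifer groups in the tested low bins was limited by the rule, which used the mean of the same heifers, and is given as a description. Their median was -0.599 points, against -0.106 over all bins tested, and the middle 50% lay between -2.80 and 1.37 points. The mean was lower in IUHT-H in 1522 of the 2632 low bins (57.8%, against 50.9% of all bins), the same heifers entering each. Differences over 15 points were found in 19 (0.722%, against 2.32% of all bins). The groups did not overlap in 263 low bins, 9.99% of them, and this share was 9.99% among all bins tested. Of these, 165 were lower in IUHT-H (6.27% of low bins, against 5.12% of all) and 98 higher (3.72%, against 4.87%). Without the overdispersion term 161 low bins (6.12%) were called, 106 lower and 55 higher, against 6.89% of all bins, 3.88% lower and 3.02% higher. By these counts, summed over both directions, the share of low bins was near or below that of all bins, whereas by limma at an unadjusted p under 0.05, and by bins without overlap that were lower in IUHT-H, it was above that of all bins.

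The 3 low bins with the smallest p were not called by the overdispersed logistic regression or by limma, and all 3 were called without the overdispersion term. At chr5:113150000-113150999 IUCL-H heifers had 40%, 26.2% and 20.8% on 35, 42 and 48 calls and IUHT-H heifers 0%, 0% and 3.33% on 37, 33 and 60 calls (unadjusted p = 0.00634, adjusted p = 1 by the overdispersed logistic regression, and adjusted p = 0.966 by limma). The means were 29.01% ± 9.89 and 1.11% ± 1.92. At chr4:69346000-69346999 IUCL-H had 15.2%, 28.6% and 19.1% and IUHT-H 4.88%, 0% and 0%. At chr9:76012000-76012999 IUCL-H had 9.09%, 15.6% and 7.55% and IUHT-H 1.41%, 0% and 0%. The groups did not overlap in any of these 3 bins, and IUHT-H was lower in all. The bins were picked by p, so this is a description, and 9.99% of all bins tested had no overlap. In liver the bin of chromosome 5 had 1.76% and 4.00% in 2 IUCL-B calves and 0% in 2 IUHT-B calves, on 422 and 28 calls. The bin of chromosome 4 went the other way there, with 0% to 11.9% in 3 IUCL-B calves and 37.9% to 50.0% in 3 IUHT-B calves.

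**Figure D5:**
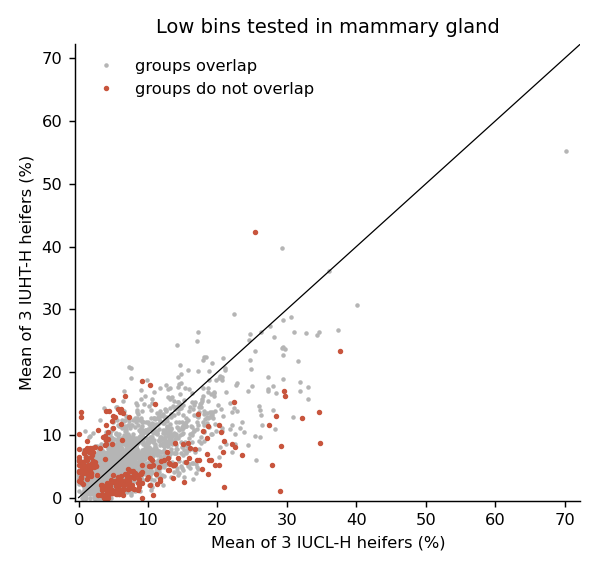
Mean percent of methylated calls of the 3 IUCL-H heifers (horizontal) and the 3 IUHT-H heifers (vertical) in the 2632 low bins with at least 20 calls in every heifer, with the line of equal means. Red points mark the 263 bins in which the groups do not overlap, 165 below the line and 98 above it.

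In liver the same test could be made on few low bins. Only 2 of the 860 bins with at least 20 calls in every calf were low bins, chr3:8104000-8104999 and chr2:132692000-132692999, and neither was called (adjusted p = 0.523 and 0.568 by the overdispersed logistic regression), while 78 of all bins were (9.07%). At an unadjusted p under 0.05 there was no low bin, against 16.9% of all bins, and with limma 1, on chromosome 3 (unadjusted p = 0.0449, adjusted p = 0.460), against 10.2%. The means of the bin on chromosome 3 were 19.4% ± 7.70 in IUCL-B and 7.47% ± 7.08 in IUHT-B, and the groups overlapped.

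With the requirement relaxed, after the data were seen, to 20 calls in at least 3 calves of each group, 82 low bins could be tested among 7891. Of these, 8 were called by the overdispersed logistic regression, all lower in IUHT-B, against 4.89% of all bins called and 1.6% called lower. In 6 of the 8 every IUHT-B calf with 20 calls had no methylated call. A group wholly at 0% adds nothing to the estimate of overdispersion. That estimate was 0.697 to 4.09 in the 8 bins, against medians of 20.4 over the 82 and 32.9 over all 7891. The 8 calls may thus be too many, and the count was not repeated without IUCL-B calves 4 and 5. At chr23:23129000-23129999 the IUCL-B calves had 11.4%, 13.6%, 22.03% and 13.04% (calves 1, 2, 4 and 5) and the IUHT-B calves 0%, 0.0619% and 0% (calves 2, 3 and 5; adjusted p = 0.0183 by this regression). At chr17:70821000-70821999 the IUCL-B calves had 9.91%, 10.3%, 12.0%, 1.30% and 4.49% and the IUHT-B calves 0% on 28, 820 and 2240 calls (calves 2, 4 and 5; adjusted p = 0.0355). At chr5:116616000-116616999 IUCL-B calves 1, 3 and 5 had 23.6%, 2.33% and 16.7% and IUHT-B calves 2, 3 and 5 had 0%. The groups did not overlap in these 3 bins, which were called for a group difference, so this is a description. The share without overlap among the 7891 bins is not given. In the other 5 of the 8 bins, on chromosomes 1, 15, 18, 25 and 27, at least 1 IUCL-B calf was also at 0%. At chr25:30153000-30153999 only IUCL-B calf 5, among the calves with 20 calls, had methylated calls (2.34%).

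In heifers the pooled calls of the 8 bins were lower in IUHT-H in 3 and higher in 5. The groups did not overlap in 1 of them, against 9.99% of all mammary bins with at least 20 calls in every heifer. That bin was chr15:54027000-54027999, with 3.39% to 10.7% in IUCL-H and 0% to 1.27% in IUHT-H. At the bin of chromosome 18, chr18:63107000-63107999, IUCL-H heifers lay between 2.60% and 10.4% and IUHT-H heifers between 0.637% and 2.70%. At the bin of chromosome 23 IUCL-H heifers lay between 7.79% and 10.3% and IUHT-H heifers between 6.42% and 12.3%, and at that of chromosome 17 between 13.2% and 19.3% and between 15.8% and 19.9%. Over the 82 bins the mean was lower in IUHT-B in 62 (75.6%, against 43.7% of all 7891 bins), the same calves entering many of them. Every IUHT-B calf with 20 calls was at 0% in 26 of the 82 bins (31.7%, against 0.963% of all bins), and every such IUCL-B calf in 1 (1.22%, against 0.0887%). The rule chose bins of low methylation and the 7891 bins were not so chosen. The shares with a lower mean and the shares at 0% are therefore a description. The main liver test also called bins without a planted difference in simulated counts. IUHT-B calves shared positions with each other. They also covered few positions, 5035 to 18492 in the 1398 to 4328 low bins they read. IUCL-B calves 1 to 3 covered 12289 to 15695 in 3159 to 3769 low bins. IUCL-B calves 4 and 5 covered 125972 and 307913 in 9588 and 10075. The part of shared and of few positions in the values of 0% and in the lower means was not tested.

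Single cytosines with more than 10 reads in every animal were tested by logistic regression without overdispersion, with a difference of at least 15 points between pooled reads and a q-value of 0.2 or less. In mammary gland 32 of 18486 such sites lay in 14 low bins, and 18 of the 32 were at 10% or less in every heifer. Of the 32 sites 2 were called, both lower in IUHT-H. Among all sites tested, 1.54% were called and 1.11% were called lower. With more than 5 reads instead of 10, 2 of 63 sites in low bins were called, 1 higher and 1 lower (1.30% of all sites). With more than 20 reads 2 of 19 were called, both lower (1.19% of all sites). The site chr14:46485297 had 40.5%, 35.3% and 29.4% in IUCL-H and 19.0%, 15.4% and 25.9% in IUHT-H, a difference of pooled reads of -16.3 points (adjusted p = 0.103 by logistic regression). The site chr4:103845499 had 46.7%, 52.6% and 28.6% and 22.6%, 29.4% and 23.8% (-18.2 points, adjusted p = 0.187). With an overdispersion term neither was called (0% of all sites). No site in a low bin was called when IUCL-H heifer 1, IUCL-H heifer 2, IUHT-H heifer 1 or IUHT-H heifer 2 was left out. The shares of all sites called were then 2.40%, 1.44%, 1.94% and 1.96%. Without IUHT-H heifer 3 the count was 1 (1.39% of all sites), and without IUCL-H heifer 3 it was 2 (1.72%). In liver none of the 900 sites tested lay in a low bin.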

How the data were processed

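Genomic DNA of 9 bull calf livers and 6 heifer mammary glands was analysed, with 1 library and 1 file per animal. The authors used MspI and then TaqαI for digestion, kept fragments shorter than 300 bp, treated them with bisulfite and sequenced single ends of 50 bp. Per the labels, reads were trimmed with Trim Galore 0.4.4 and mapped with Bismark 0.17.0 to UMD3.1, whereas the study's methods give UMD3.1.1 and other versions of these tools. The authors deposited the count of methylated and unmethylated reads at each cytosine position and the percent of methylated reads, without a minimum of coverage. Both strands of a CpG were listed separately. Libraries held 10484911 to 38221835 calls, and PCR copies were not marked by molecular identifiers, so that intervals and tests on reads cover counting error only.

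Positions were assigned to bins of 1 kb by their coordinate, given as in the files (1-based). For levels per animal, every split of the animals of a tissue was enumerated in an exact permutation test (two-sided). A pair of measures in the same animals was compared by exact sign-flip tests. Bins with at least 20 calls in every animal of a tissue were fitted by logistic regression with McCullagh-Nelder overdispersion and an F test, and sites above 10 reads in each animal by logistic regression with a likelihood-ratio test. The Benjamini-Hochberg adjustment was made over all bins or sites tested in the tissue. Limma 3.58.1 in R 4.3.3 was used as an alternative, with a pseudocount of 0.5, and all other steps used Python 3.11.15, numpy 2.4.6, pandas 2.3.3 and scipy 1.17.1. The tests were tried on simulated data with planted differences.

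The low bins and the rule for bins named in the text (longest runs, bins nearest to the limit, smallest p or called, largest SD, most calls) were chosen with earlier results of these data known. Requiring 20 calls in only 3 calves of each group, giving every bin the same weight in mammary gland, leaving IUCL-B calves 4 and 5 out of the rim and depth comparisons with other dense bins and choosing the set without each animal were added after the data were seen. Genes, promoters and sequences were not analysed here. Equal numbers of calves 2 to 5 in both groups were not shown to mark pairs. The correlation of same-numbered calves in their deviations from the group means over 860 bins was -0.0544, 0.0658, 0.0642 and -0.0675. This cannot exclude pairs, since libraries of different groups covered mostly different positions in the low bins.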

Additional observations from a re-analysis of the deposited data

How the results depend on the processing

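The number of low bins was 7452 at a limit of 10%, 11314 at 20%, 14860 with 40 heifer positions, 5800 with 80, 7690 with 30 calf positions and 9303 by percent of all calls, and leaving out 1 animal gave 6713 to 10088. The liver difference in low bins kept its direction under all alternatives run, but p passed 0.05 as the mean over positions (-0.580 points), over positions covered in every calf (-1.20), without IUCL-B calves 4 and 5 (-0.977) and without any 1 calf other than IUCL-B calf 5 (-1.36 to -0.790 over all 9 calves left out in turn). With a replicate block that pairs calves 2 to 5 by number it was -1.16 points (exact p = 0.125, the smallest possible). The block called 0 low bins (0% of all bins tested) and gave a rim difference of 2.57 points (exact p = 0.750). Same-numbered calves were not shown to be pairs. The rim difference in liver turned to -0.866 points without IUCL-B calves 4 and 5 and was 0.337 to 3.23 points without 1 calf. The mammary difference turned to 3.02 points at positions with more than 10 reads and was -1.88 to -0.370 without 1 heifer, and the mammary rim difference was -6.41 to -1.59. The difference of the effects between tissues turned to 0.0839 points without IUCL-B calves 4 and 5 and to 0.407 as the mean over positions.

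Low bins called in liver numbered 3 of 11 with 10 calls in every calf (17.2% of all bins tested) and 2 of 2 without overdispersion (90.1%). They were 8 of 82 with 20 calls in 3 calves of each group (4.89%). Without IUHT-B calf 3 it was 1 of 5 (4.70% of all bins). Without any 1 of the other calves it was 0, with 3.2% to 16.6% of all bins called. In mammary gland 161 low bins were called without overdispersion (6.12%, against 6.89% of all bins) and 0 without any 1 heifer (0% of all bins). Sites called in low bins in mammary gland fell to 0 with overdispersion (0% of all sites). They were 0 to 2 without 1 heifer (1.39% to 2.40% of all sites). The log2 ratio of reads per position in calves turned to 0.0159 without IUCL-B calves 4 and 5. The median reads per position gave a log2 ratio of -0.17 in heifers (exact p = 1), and without 1 heifer the log2 ratio of the mean was -0.58 to -0.53. The mammary rim differed from that of the other dense bins by -45.3 to -43.3 points without 1 heifer, where 5 heifers cannot give an exact p under 0.0625. Of 161 alternatives, 118 kept the direction and the side of the threshold or, for a count, stayed within 1.5 times of it. The 118 include every setting for liver sites, where no site tested lay in a low bin and the count of 0 was fixed. They also include the settings of the overdispersed regression in mammary bins, a test that called no planted difference. Of the other 43, 25 kept the direction and lost the threshold, 13 moved a count further and 5 reversed a direction. With 1 to 2 reads per position in heifers, no low bin was called in mammary gland with overdispersion or by limma.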

Other observations

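The dense bins in which the tissues parted were not members of the low set but bear on its limits. The 135 bins low in liver and over 50% in mammary gland had medians of 9.64% and 66.5%, on a median of 282 calf calls from 4 calves, and 53 of them were read in at least 5 calves. Of these bins 22 lay in the last 2 Mb of a chromosome. The 6 bins low in mammary gland and over 50% in liver had medians of 11.4% and 59.9%. In 14 comparisons of a lowest or highest calf with the rest of its group, Dixon's ratio flagged no calf. Groups of 4 and 5 calves are too small for this ratio to flag much, so no conclusion is drawn from it.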
